A study of Mus musculus with 4 samples.

Results

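The regions described here are stretches of the mouse genome where a REST antibody enriched DNA moderately and where no enrichment of Ring1b, MCAF1 or H4K20me3 was called. REST regions were called from read numbers in windows of 1000 bp, as windows with at least 5 times background and a Poisson probability of at most 1e-09, and overlapping windows were joined. Background was the genome-wide mean of covered windows or, if larger, the mean of the surrounding 1000000 bp. A REST region was taken when its highest window stayed under 20 times background (moderate) and when it overlapped no region called in another library (lone). This gave 1199 lone moderate regions of 2709 REST regions, or 44.3% (95% interval 42.4% to 46.2%). They were 50.9% of the 2356 REST regions under 20 times background. The other classes were 1157 moderate regions that overlapped another library's region (moderate shared), 204 lone regions at or over 20 times (lone strong) and 149 strong shared regions. At a probability threshold of 1e-06 the same rule gave 2177 lone moderate regions.

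The cells were V6.5 mouse embryonic stem cells, an untreated line of mixed C57BL/6 and 129 background. They had been kept on irradiated embryonic fibroblasts as feeders and were then grown on gelatin alone, for 1 passage (REST) or 2 passages (Ring1b, MCAF1 and H4K20me3). No source used here says how many feeder cells remained. Chromatin was sheared to a mean of 500 bp, precipitated with antibodies to REST (Upstate), Ring1b, MCAF1 (Bethyl) or H4K20me3 (Abcam), and amplified for 18 cycles. A gel slice of 150 to 350 bp (REST, H4K20me3) or 150 to 300 bp (Ring1b, MCAF1) was sequenced. Each antibody had 1 library, and no input library was used here. Antibody, growth off feeders, sequencing run and depth cannot be told apart, so no difference between libraries or between classes of region was tested.

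REST, the RE1-silencing transcription factor, is a zinc-finger protein that binds a long DNA element, RE1, near many neuronal genes. It recruits corepressor complexes with CoREST, SIN3 and histone deacetylases, and represses neuronal genes in stem cells and non-neuronal tissues. Ring1b, a Polycomb protein, ubiquitinates histone H2A within PRC1, MCAF1 (ATF7IP) is a partner of the histone H3 lysine 9 methyltransferase SETDB1, and H4K20me3 is trimethylated lysine 20 of histone H4, a mark of constitutive heterochromatin.

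Once repeated positions were removed, 3131692 REST, 3087218 Ring1b, 11026878 MCAF1 and 7783420 H4K20me3 reads remained. Of covered windows, 0.100% were called in REST, 0.625% in Ring1b, 0.0726% in MCAF1 and 0.396% in H4K20me3. At the genome mean a call needed 14 reads in REST and in Ring1b, 24 in MCAF1 and 20 in H4K20me3. Relative to the mean this was 10.3, 10.4, 5.01 and 5.91 times, so a region counts as lone with respect to Ring1b at a higher level than with respect to MCAF1. Among moderate REST regions 996 overlapped a Ring1b region, 671 an H4K20me3 region and 294 an MCAF1 region. The share without any such overlap was 50.9% of moderate regions (48.9% to 52.9%), against 57.8% (52.4% to 63.0%) of the 353 strong regions. Intervals here and below cover counting error of reads or regions. For medians they cover the uncertainty of the median over regions, not the spread of single regions.

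The REST level of the lone moderate regions was set by the rule, since the regions were chosen by their REST read numbers and by the lack of calls in the other libraries; it is given as a description, with no test. In a bulk precipitation, binding in few cells and weak binding in many cells cannot be told apart. Their highest windows held 14 to 57 REST reads, with a median of 21 and quartiles of 18 and 27. The median fold over background was 10.7 (10.4 to 10.99) and folds ran from 5.29 to 19.95. There were 485 regions (40.5%) below 10 times, 272 (22.7%) from 10 to 12 times, 238 (19.8%) from 12 to 15 times and 204 (17.0%) from 15 to 20 times. Most of the class therefore lay in the lower part of the permitted range. There were 110 regions (9.17%) within 1 read of 14, the smallest number that could be called at the genome mean. A higher local background raises that number, and regions close to their own higher minimum were not counted. The surrounding 1000000 bp set the background in 1081 of the 1199 (90.2%), with a median of 1.52 times the genome mean. The median was 1.37 times around lone strong regions and 1.32 times around moderate shared regions.

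**Figure D1:**
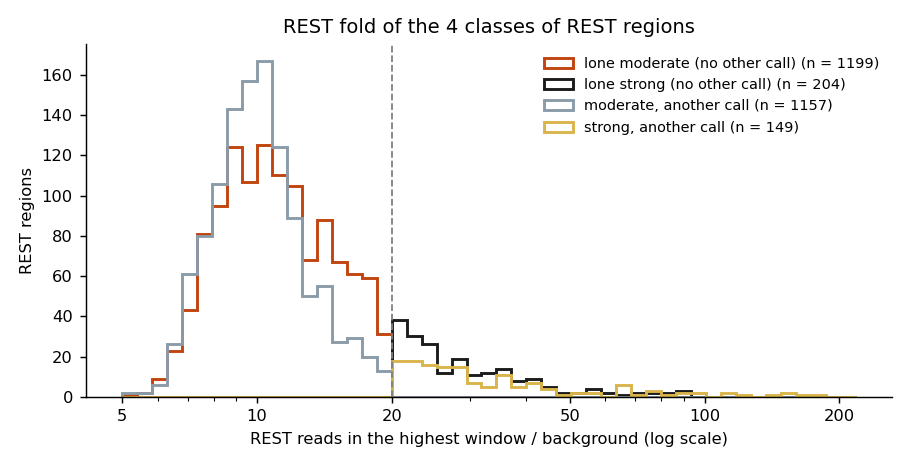
Number of REST regions (vertical axis) by REST reads in the highest window over background (horizontal axis, log scale) for the 4 classes, with the limit of 20 times as a dashed line. Lone moderate regions (red) have a median of 10.7 times and reach the limit without a gap, while 204 lone strong regions (black) lie above it.

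The limit of 20 times cut a continuous range. Just below it, outside chromosome 18, whose regions are counted but not named here, the region on chromosome 16 at 95080501–95082000 (mm8, as for all coordinates here) held 36 REST reads in its highest window, or 19.95 times background with a counting interval of 14.0 to 27.6. A region on chromosome 1 at 137431501–137433500 held 55 reads (19.8 times), and another on chromosome 1 at 179219001–179220500 reached the same fold with 27 reads in surroundings at the genome mean. Just above the limit, and so outside the class, chromosome 2 at 104099501–104101000 held 32 reads (20.02 times) and chromosome 17 at 33582501–33584000 held 48 (20.07 times). The counting intervals of all 5 regions include 20 times. A pair of high regions lay 57501 bp apart on chromosome 5: the one at 121269501–121271000 held 49 reads (19.7 times) and the one at 121328501–121330500 held 47 (19.6 times).

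At the lower end stood 2 regions near the start of the sequenced part of chromosome 11. The region at 3097501–3098500 held 34 REST reads, 5.29 times a local background 4.72 times the genome mean. The region at 3069001–3070000 held 36 reads, 5.40 times a local background 4.90 times the genome mean. Both also held many reads of the other libraries, 105 and 110 of MCAF1 and 56 and 59 of H4K20me3, without reaching a call, and each had an MCAF1 region 501 bp away. These 2 regions had the lowest ratio of REST to the other libraries in the class, 1.34 and 1.33.

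The lone moderate regions were short. Of the 1199, 789 (65.8%) were 1500 bp wide and 389 (32.4%) were 1000 bp, the smallest width the windows allow. The median region had 0 REST reads outside the highest window. Only 3 were wider than 2000 bp, and in each many REST reads lay outside the highest window. On chromosome 9 at 64464001–64466500 the highest window held 33 reads and another 23 lay outside it. On chromosome 15 at 100973001–100975500 the numbers were 28 and 23, and on chromosome 6 at 44988001–44990500 they were 24 and 17. The last of these stood far from other regions, 1391501 bp from the nearest Ring1b region, and held 1 Ring1b, 3 MCAF1 and 2 H4K20me3 reads in the highest window.

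The rule did not use the distance between plus-strand and minus-strand reads inside a region. It did move each read 75 bp in its 3′ direction before counting, which can favour plus-strand reads on the left and minus-strand reads on the right. At a site bound by a protein, reads on the plus strand lie to the left of the site and reads on the minus strand to the right, so the median minus-strand position less the median plus-strand position is positive and near the fragment length less the read length. In lone moderate regions this strand offset had a median of 104 bp (102 to 107.5), against 110 bp in lone strong regions and 103 bp in moderate shared regions. The medians were close, but the spread was not. The offset was positive in 1137 of 1199 lone moderate regions (94.8%, interval 93.4% to 96.0%), against 100% of lone strong and 78.9% of moderate shared regions. It lay between 50 and 200 bp in 82.3% (80.0% to 84.4%) of lone moderate regions, against 98.0% of lone strong and 43.3% of moderate shared regions. Pairs of REST reads on opposite strands were 6.82 times as frequent with the minus-strand read 50 to 200 bp to the right as with it 50 to 200 bp to the left in lone moderate regions, against 14.4 times in lone strong and 1.95 times in moderate shared regions. The size in bp depends on how minus-strand positions are read: moved by the seed length, the median offset was 128 bp. In the regions found with reads moved 50 or 100 bp before counting, it was 103.5 or 105 bp.

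REST reads were also gathered in a narrow stretch. The interquartile range of read positions in the highest window had a median of 114 bp (110 to 118) in lone moderate regions, against 88.2 bp in lone strong and 314 bp in moderate shared regions. It was at most 150 bp in 808 of the 1199 (67.4%), against 95.6% of lone strong and 12.8% of moderate shared regions. It was over 300 bp in 160 (13.3%), against 1.47% of lone strong and 54.2% of moderate shared regions. Both features together, a range of at most 150 bp and an offset of 50 to 200 bp, were found in 767 lone moderate regions (64.0%), against 95.1% of lone strong and 10.5% of moderate shared regions. The interquartile range and the shares past these limits lay between those of the other classes and nearer to the lone strong class. The median offset was nearer to the moderate shared class, and the ratio of opposite-strand pairs lay between those of the other classes. The classes also differed in read number, with a median of 21 REST reads in the highest window of lone moderate regions, against 52 in lone strong and 18 in moderate shared regions, and its part in these differences was not tested.

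**Figure D2:**
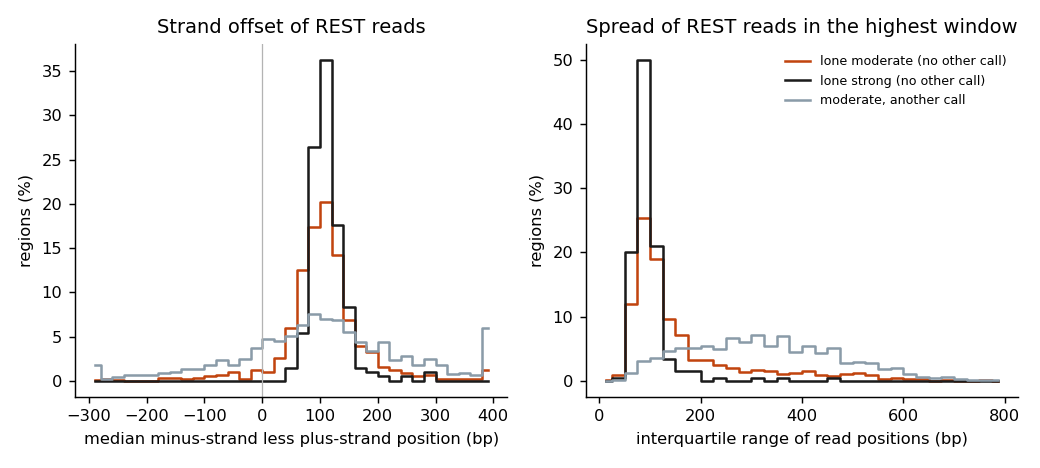
Left, percent of regions of each class by strand offset of REST reads in bp (20-bp bins, with offsets beyond the plotted range gathered in the end bins). Right, percent of regions by interquartile range of REST read positions in the highest window in bp (25-bp bins). Lone moderate regions (red) peak near 104 bp on the left and have a median of 114 bp on the right, with a tail towards the broad distribution of moderate shared regions (grey).

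The class was not uniform. Divided by fold, the 400 regions with the lowest folds (up to 9.38 times) had a range of at most 150 bp in 44.2%, the next 400 in 71.5% and the 399 with the highest folds (from 12.5 times) in 86.5%. The share with an offset of 50 to 200 bp was 70.2%, 83.2% and 93.5% in the same order, and the ratio of right-hand to left-hand pairs was 3.62, 6.16 and 9.38. Regions at the lower end of the class thus had less concentrated reads. Their local background was also higher, at a median of 1.72 times the genome mean, against 1.38 and 1.35 times in the next and highest groups. The rule requires part of this. A call at the genome mean needed 10.3 times, so every region up to 9.38 times had a local background above that mean. The division by background in the fold itself also favours the difference. Spearman's correlation of fold with the interquartile range was −0.40 over the 1199 regions, which share 1 library, and is a description.

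The REST calls were then set against the reads of the other 3 libraries, scaled to the REST total, as an additional background with the same thresholds. The reads were summed before scaling, so MCAF1 (4.79 reads per covered window) and H4K20me3 (3.38) weighed more than Ring1b (1.34). A call against this sum is therefore not a call against each library. Of all REST regions 38.7% were called again, and 0.0408% of covered windows. Among lone moderate regions 719 of 1199 (60.0%, interval 57.1% to 62.8%) were called again, against 204 of 204 lone strong and 38 of 1157 (3.28%) moderate shared regions. Part of this difference follows from the rule, which bars calls of the other libraries and separates the classes by REST fold. The share of lone moderate regions called again depends on the settings, each applied to the regions found in that way. It was 41.6% (452 regions) with the genome mean alone as background and 45.7% (419) with windows of 500 bp. At a probability threshold of 1e-06 it was 46.5% (1013), and under the remaining settings tried it was 52.3% to 62.9%. Within the class the share was 29.8% in the 400 regions with the lowest folds, 59.2% in the next 400 and 91.0% in the highest 399. Part of this rise is also built in, since the second call used the same REST reads and kept REST's own background as its minimum. The median ratio of REST reads to the scaled reads of the others was 6.36 in lone moderate regions, against 13.6 in lone strong and 1.82 in moderate shared regions.

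Narrow and broad members differed in this reading. Of the 808 lone moderate regions with a range of at most 150 bp, 77.6% (74.6% to 80.4%) were called again, against 10% (5.82% to 15.7%) of the 160 with a range over 300 bp. Ring1b stood at 5 times background or more in 7.43% of the narrow regions, against 45.6% of the broad ones. By reads within 200 bp of the centre the Ring1b contrast was smaller, at 6.54 times the genome mean in the narrow regions, against 9.52 times in the broad ones. H4K20me3 reads within 200 bp of the centre stood at 2.63 times the genome mean in the narrow regions, against 5.13 times in the broad ones. The narrow regions held more REST reads, with a median of 23 in the highest window, against 18 in the broad ones, and the part of read number in these differences was not tested.

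The highest ratios of REST to the other libraries came from regions with few reads in all. On chromosome 7 at 120217501–120218500 there were 15 REST reads in the highest window, with 1 of Ring1b, 1 of MCAF1 and 0 of H4K20me3, a ratio of 52.5. On chromosome 12 at 25013501–25015000 there were 16 REST reads, with 0 of Ring1b, 3 of MCAF1 and 0 of H4K20me3, a ratio of 37.3. A region with more REST reads but no Ring1b read was among the widest, on chromosome 15 at 79618001–79620000. It held 55 REST reads (16.8 times background), with 0 of Ring1b, 14 of MCAF1 and 7 of H4K20me3, a ratio of 18.3, and the upper limit of the exact Poisson interval of its Ring1b fold was 1.23.

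Absence of a call was not absence of reads. In the highest windows of lone moderate regions Ring1b reads summed to 4.51 times the genome mean (4.40 to 4.61), against 5.12 times in lone strong and 16.9 times in moderate shared regions. MCAF1 stood at 2.81 times (2.76 to 2.85), against 3.10 and 5.73 times in the same other classes, and H4K20me3 at 2.85 times (2.80 to 2.90), against 2.43 and 8.26 times. Relative to the local background the values in lone moderate regions were 2.82 times for Ring1b, 1.82 times for MCAF1 and 1.67 times for H4K20me3. The rule bounds all of these from above, since a higher value would have been a call.

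Region by region, the median fold in lone moderate regions was 2.43 for Ring1b, 1.72 for MCAF1 and 1.45 for H4K20me3. Ring1b was at 2 times background or more in 734 of them (61.2%), MCAF1 in 434 (36.2%) and H4K20me3 in 365 (30.4%). Ring1b was at 5 times or more in 199 (16.6%), H4K20me3 in 9 and MCAF1 in none, the last of which the call at 5.01 times the mean nearly ensures. All 3 libraries were at 2 times or more in 194 regions (16.2%), and all 3 were at or below background in 30 (2.50%). Windows with 0 reads numbered 34 for Ring1b, 9 for H4K20me3 and 0 for MCAF1, and no region lacked reads of all 3. No share over other windows stands beside the counts of this paragraph, so they describe the class and are not read as enrichment. At the Ring1b genome mean of 1.34 reads per covered window, few reads reach 2 times background. The highest Ring1b fold without a call, 9.69 times from 13 reads, was on chromosome X at 96021501–96023000. The highest MCAF1 fold was 4.81 on chromosome 15 at 73502501–73503500, and the highest H4K20me3 fold was 5.61 on chromosome 1 at 63548001–63549500.

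**Figure D3:**
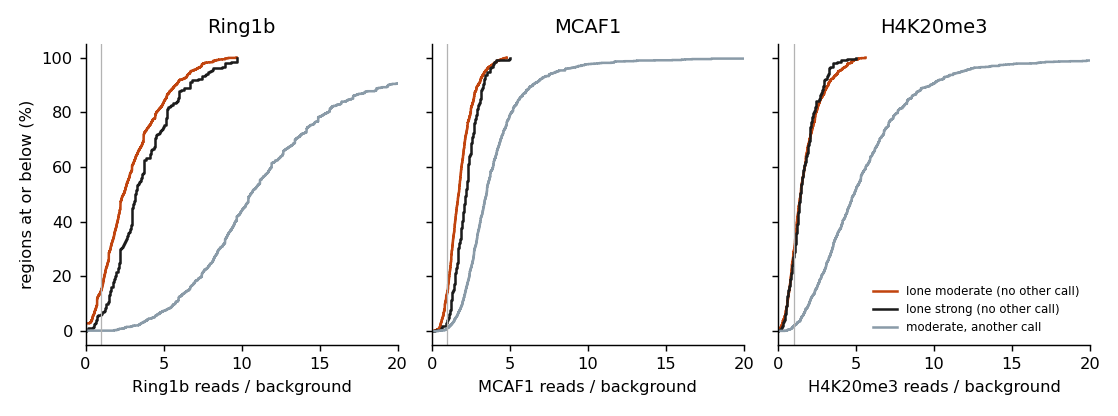
Percent of regions (vertical axis) whose Ring1b, MCAF1 or H4K20me3 reads in the highest REST window are at or below a given multiple of that library's background (horizontal axis, shown up to 20), with a grey line at 1. Lone moderate regions (red) have medians of 2.43, 1.72 and 1.45 and, like lone strong regions (black), end where a call would begin, while moderate shared regions (grey curve) extend beyond.

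The other libraries' reads were counted by distance from the centre, the median position of REST reads in the highest window. REST itself was 36.6 times the genome mean within 200 bp of the centre and 4.18 times from 200 to 500 bp, as the choice of regions and centre required. Ring1b stood at 7.47 times (7.26 to 7.69) within 200 bp, 2.58 times from 200 to 500 bp, 1.83 times from 500 to 1000 bp and 1.75 times from 1000 to 2000 bp. MCAF1 stood at 3.80 times (3.72 to 3.88) within 200 bp, 2.16 times from 200 to 500 bp and 1.66 times from 1000 to 2000 bp. Both therefore had a maximum at the REST centre in regions with no Ring1b or MCAF1 call. H4K20me3 was flatter, at 3.17 times (3.05 to 3.30) within 100 bp and 3.39 times (3.26 to 3.52) from 100 to 200 bp, and fell to 1.88 times from 1000 to 2000 bp.

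The height of this central maximum was compared between classes. Within 200 bp Ring1b stood at 7.47 times the genome mean in lone moderate regions, against 10.2 times in lone strong and 23.2 times in moderate shared regions. From 2000 to 5000 bp it stood at 1.97 times around lone moderate regions, against 1.33 and 2.68 times. MCAF1 within 200 bp stood at 3.80 times, against 4.99 and 7.38 times, and H4K20me3 at 3.28 times, against 3.06 and 8.68 times. Inside the class the Ring1b value within 200 bp was 8.07, 6.77 and 7.57 times in the groups of lowest, next and highest REST folds, and from 2000 to 5000 bp it was 2.24, 1.88 and 1.80 times in the same order. The rule limits the range of both the REST fold and the Ring1b reads, so no relation between them is read from these values. Over the 1199 regions Spearman's correlation of REST fold was −0.0075 with Ring1b fold, −0.0042 with MCAF1 fold and −0.14 with H4K20me3 fold. Among the other libraries the folds correlated with one another, at 0.41 for Ring1b and MCAF1, 0.43 for Ring1b and H4K20me3 and 0.42 for MCAF1 and H4K20me3. These coefficients are descriptions over regions whose range the rule limits and which share the 4 libraries, and base composition was not analysed here.

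**Figure D4:**
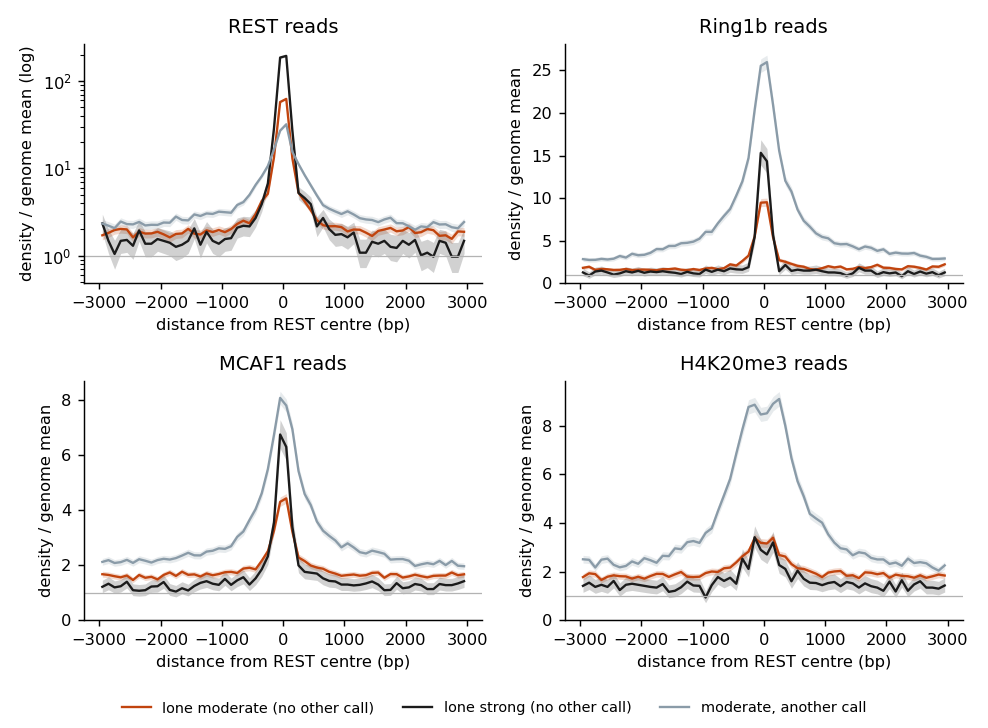
Read density over the genome mean (vertical axes, log scale for REST) by distance in bp from the centre of REST reads, for the 4 libraries in 100-bp bins, with lines for 3 classes of region, exact Poisson 95% intervals as bands and a grey line at 1. In lone moderate regions (red) Ring1b and MCAF1 reach 7.47 and 3.80 times within 200 bp of the centre, and H4K20me3 has a broad, low elevation.

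The central reads were spread over most of the class and not held by a few regions. Only 91 lone moderate regions (7.59%) had 0 Ring1b reads within 200 bp of the centre, whereas 57.0% had 0 in the 400 bp centred 3000 bp to the left and the same share in those to the right. For MCAF1 0.834% had 0 reads at the centre, against 12.6% and 13.5% in the flanks, and for H4K20me3 4.50%, against 23.2% and 21.02%. Ring1b reads at the centre outnumbered those in either flank in 889 regions (74.1%), MCAF1 reads in 829 (69.1%) and H4K20me3 reads in 613 (51.1%). The median region had 4 Ring1b, 7 MCAF1 and 4 H4K20me3 reads within 200 bp of its centre. Opposite-strand pairs of the other libraries were less one-sided than those of REST. The ratio of right-hand to left-hand pairs was 1.66 for Ring1b, 1.38 for MCAF1 and 1.36 for H4K20me3, against 6.82 for REST. The offset with the most pairs was 111 bp for Ring1b, 82 bp for MCAF1 and 109 bp for H4K20me3, against 91 bp for REST. Outside REST these maxima were shallow, and no fragment size is read from them. For Ring1b, bins around 30 and 110 bp held 535 and 534 pairs. In lone moderate regions called again its maximum was at 27 bp.

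Few of these reads sat at the exact position and strand of a REST read. Within 300 bp of the centre this held for 3.85% of Ring1b reads (3.37% to 4.38%), 2.66% of MCAF1 reads and 1.87% of H4K20me3 reads in lone moderate regions, against 14.0%, 9.48% and 7.23% in lone strong regions. Lone strong regions offered more REST positions, so the shares of the 2 classes are not comparable without that number. The source of the central reads of the other libraries was not tested.

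Reads removed as repeats, and entries with 2 locations, were not used by the rule. Repeats made up 16.1% of REST reads in lone moderate regions (15.8% to 16.5%), against 25.6% in lone strong regions, 15.6% in moderate shared regions and 12.6% in the whole library. The other libraries had 5.56% (Ring1b), 13.3% (MCAF1) and 2.24% (H4K20me3) repeats in the same regions, against 6.31%, 12.2% and 2.06% in their whole libraries. Entries with 2 locations made up 3.54% of REST entries in lone moderate regions (3.35% to 3.74%), against 6.77% in lone strong and 8.96% in moderate shared regions. All these regions were chosen by reads with 1 location, which count in the denominator, so these shares do not measure repeated sequence. At least 1 such entry was present in 533 lone moderate regions (44.5%).

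The distance to regions of the other libraries, beyond the lack of overlap, was not used by the rule. It is set beside the same distance for the 4528706 covered windows of 1000 bp that overlap no region of the other 3 libraries, as a description with no test. The median distance from edge to edge was 37501 bp to the nearest Ring1b region, 60501 bp to the nearest H4K20me3 region and 427001 bp to the nearest MCAF1 region, against 130501, 133001 and 603001 bp for these windows. A region of at least 1 of the 3 lay within 10 kb of 316 of the 1199 (26.4%, interval 23.9% to 28.9%), against 16.7% (11.8% to 22.5%) of lone strong regions and 10.9% of the windows. The share depends on the settings: it was 42.8% with the genome mean alone as background and 12.1% where regions with another library's region within 5 kb were left out, as that setting requires. Within 10 kb, Ring1b accounted for 246 (20.5%), H4K20me3 for 183 (15.3%) and MCAF1 for 34 (2.84%), some of them shared, against 7.83%, 6.65% and 1.53% of the windows. Within 100 kb the share for any of the 3 was 81.7%, against 74.0% of lone strong regions and 53.0% of the windows. Local background around lone moderate regions was also above the genome mean, as given above, and its part in these distances was not tested. Another library's region directly adjoined 31 lone moderate regions (2.59%). One of these, on chromosome 7 at 24717001–24718500, held 54 REST reads (18.8 times background) and bordered a Ring1b region. It held 14 Ring1b reads, 4.72 times background, in its highest window.

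Lone moderate regions were nearer to one another than covered windows were to them. The nearest other lone moderate region was a median of 242751 bp away, against 1398001 bp for the windows, and 64 (5.34%) had one within 10 kb, as 32 pairs, against 0.975% of the windows. The nearest strong REST region was a median of 1276501 bp away, against 3182001 bp for the windows, and 19 (1.58%) had one within 10 kb, against 2.94% of lone strong regions and 0.278% of the windows.

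By chromosome the regions were uneven. Over the genome there were 0.521 lone moderate regions per covered Mb (0.492 to 0.552). Chromosome 11 had 1.02 per Mb (0.846 to 1.23, from 116 regions), chromosome 7 had 0.836, chromosome 4 had 0.801 and chromosome 5 had 0.772. Chromosome 3 had 0.260 and chromosome 1 had 0.307. Chromosome X had 0.0614 (0.0247 to 0.126, from 7 regions), the lowest value. The REST library's overall read density varied the same way, at 1.29 times the genome value on chromosome 11 and 0.415 times on chromosome X. Over 20 chromosomes, without Y, Spearman's correlation of the 2 quantities was 0.89, as a description. Read density on a chromosome also enters the number of reads that can pass a call, and the part of this in the counts was not tested.

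**Figure D5:**
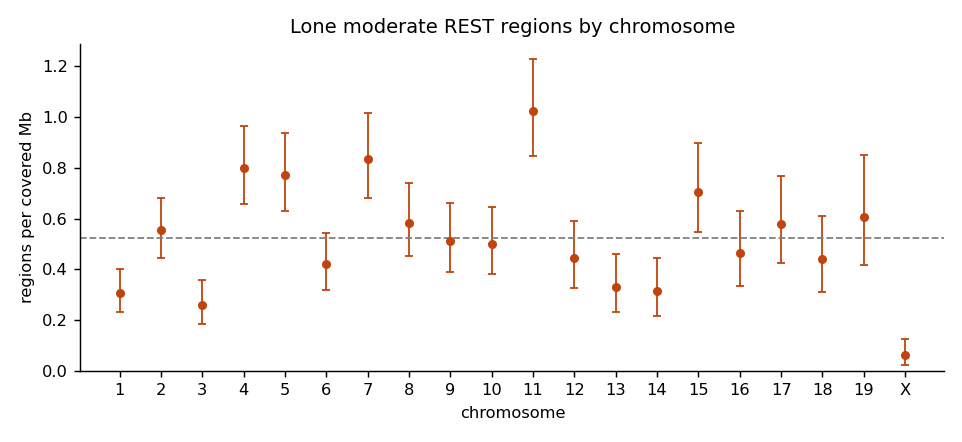
Lone moderate REST regions per covered Mb on each chromosome except Y, as points with exact Poisson 95% intervals, and the genome value of 0.521 as a dashed line. Chromosome 11 is highest at 1.02 and chromosome X lowest at 0.0614.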

How the data were processed

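The values deposited by the authors are signed read positions, 1 entry per alignment, neither counted per feature nor normalised. Reads were aligned with Bowtie to mm8, per the submitters' processing notes. Up to 2 locations were reported per read, and the seed was 26 bases (REST, Ring1b) or 36 bases (MCAF1, H4K20me3), per the file headers. The aligner's version and the read length are not given in the sources used here.

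From these, reads with 1 location were taken, 1 was kept per position and strand, and each was moved 75 bp in its 3′ direction. Windows of 1000 bp, with a step of 500 bp, were counted. A call required that the Poisson upper-tail probability was at most 1e-09 and the read number at least 5 times background, taken as the genome-wide mean of covered windows or the mean of the surrounding 1000000 bp, whichever was higher. Covered windows held a read of any library, and numbered 4598722 of 5261365. Overlapping calls were joined into regions. The call compares reads within 1 library. It was not adjusted for the number of windows tested. Files were read as counting from 0, and coordinates are printed counting from 1. Minus-strand entries were read as the leftmost base of the read, since, among offsets within 10 bp of 0, opposite-strand pairs had their highest number at 0 bp in REST, Ring1b and H4K20me3 and at 1 bp in MCAF1. MCAF1 had more pairs at 35 bp (27951) than at 0 bp (27433), so this reading rests on the other libraries and is not stated by a source used here. An alternative moves them by the seed length.

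Strand offsets used unmoved positions in the region and 100 bp on either side, and the spread used moved positions in the highest window. All intervals are 95% intervals: Clopper-Pearson where a share is given, exact Poisson where reads are counted, and order-statistic intervals over regions for medians. They cover counting error or the uncertainty of a median over regions, not variation between experiments. They treat regions and reads as independent, but the regions share 1 library per antibody and amplified reads are not independent molecules. Named regions were the extremes of each measure: the 10 highest and 5 lowest folds, the 5 on either side of 20 times background, the 5 widest, the 5 with the most reads outside the highest window, the 3 highest folds of each other library, the 5 highest and 5 lowest ratios to the other libraries, and the 5 nearest to a region of each other library. Most of these groups are represented by examples, and regions on chromosome 18 were counted in the class but not named. The members and these lists were chosen with earlier results of these data known. Genes, motifs and base composition were not analysed here, because no genome or annotation of the mm8 build was used. The caller and the strand offset were tested on simulated reads, and recovery of planted regions was required only at the higher planted folds. The other measures were not tested in this way. The software was pandas 2.3.3, scipy 1.17.1, numpy 2.4.6 and matplotlib 3.10.9 under Python 3.11.15.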

Additional observations from a re-analysis of the deposited data

Results flagged for a closer look

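Read entries with 2 reported locations were left out of the region calls, yet 1287 REST entries of that kind lay in the lone moderate regions. This was flagged because it is a signal outside the reads that the calls were made from. These entries were 3.54% of all REST entries in the lone moderate regions, against 6.77% in the lone strong regions, 8.96% in the moderate shared regions and 12.02% in the whole library. Choosing regions by many reads with 1 location favours a share below that of the library, so no lack of repeated sequence is read from it. With reads of 1 or 2 locations counted together, the same procedure gave 1264 lone moderate regions, and 91.8% of the 1199 overlapped 1 of them.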

How the results depend on the processing

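The number of lone moderate regions stayed between 829 and 1698 under 12 of 13 alternatives, against 1199 as reported, and was 2177 at a probability threshold of 1e-06. The median fold was 8.08 at that threshold, 12.5 at 1e-12, 9.63 with repeated reads kept, 12.5 with the genome mean alone as background and 14.8 with 500-bp windows. It was 10.1 with an upper limit of 15 times background, 11.02 with 25 times, and 10.1 with reads of 1 or 2 locations. Called with the other 3 libraries as background were 719 lone moderate regions (60.0%) as reported. Of those found under an alternative, the number was 452 (41.6%) with the genome mean alone and 419 (45.7%) with 500-bp windows. At a probability threshold of 1e-06 it was 1013 (46.5%). The median strand offset was 101.5 bp with the genome mean alone, 101 bp with 500-bp windows and 128 bp with minus-strand positions moved by the seed length. This last change follows from the construction of the alternative. The causes of the other changes were not tested.

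The regions themselves also changed. Of the 1199 regions, 46.6% overlapped a lone moderate region found with 500-bp windows, 59.0% one found with the genome mean alone and 64.4% one found at 1e-12. Under the other 10 alternatives the share was 83.0% to 100%. The following measures, chosen after the data were seen, ranged over the 13 alternatives from 5.73 to 8.11 times the genome mean for Ring1b reads near the centre, from 3.23 to 3.88 times for MCAF1, and from 2.82 to 3.43 times for H4K20me3. The share with a positive strand offset ranged from 88.2% to 97.6%, the median spread of REST reads from 100.25 to 153 bp, and the share within 10 kb of another library's region from 12.1% to 42.8%. No paired analysis was possible because each antibody had 1 library.

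Depth limits the calls. At the genome mean, a call needed 14 reads in REST and Ring1b, 24 in MCAF1 and 20 in H4K20me3, which is 10.3, 10.4, 5.01 and 5.91 times that mean in the same order, so a Ring1b enrichment between 5.01 and 10.4 times could pass unseen where one of MCAF1 would be called. With all libraries thinned to the lowest depth, 3083311 reads, 1265 lone moderate regions were found, and 96.3% of the 1199 overlapped 1 of them. REST and Ring1b were already near that depth. Mainly MCAF1 and H4K20me3 lost reads, and their regions fell from 2044 to 352 and from 9463 to 3137. Fewer calls of those libraries can hardly remove a lone region, so this share does not bear on Ring1b enrichment that passed unseen.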
